A study of Homo sapiens with 8 samples.

Results

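The genes described here are 10 stress and arrest genes that are textbook targets of the DNA damage response or belong to the GADD45 family, followed across 8 expression arrays of SKBR3 cells, a human HER2-amplified breast cancer line. They were chosen by symbol from the platform annotation, with earlier results of these data known, as were the related gene lists below. Shares of all genes set beside their counts are therefore description only. The 10 genes carry 30 probe sets, among 19775 genes analysed in all, and 29 of these probe sets name 1 gene each. The probe set of BBC3 also lists the microRNA genes MIR3190 and MIR3191, so its value cannot be ascribed to BBC3 alone, and it is given apart from the other 9 genes. All cells spent 4 h in 10% charcoal-stripped serum before a treatment of 3 h, with 1 array per condition. The conditions were untreated, 0.1% ethanol (the vehicle of estradiol), BSA at 1e-06 M, estradiol at 1e-06 M, E2-BSA at 1e-06 M, G15 at 1e-05 M, E2-BSA at 1e-06 M with ICI at 1e-05 M, and E2-BSA at 1e-06 M with G15 at 1e-05 M. E2-BSA is the hormone attached to albumin, and BSA is that carrier. G15 is an antagonist of the membrane estrogen receptor GPER, and ICI is given in the labels by this abbreviation only. ICI without E2-BSA was not analysed here.

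DNA damage and other stresses raise a programme of transcripts that arrest the cell cycle, prepare the cell for apoptosis and support repair. CDK inhibitors and GADD45 proteins hold the cycle, BH3-only proteins and death receptors lower the threshold for apoptosis, and sestrins restrain growth signalling. Several of these genes also have promoters or enhancers that answer to ATF4 and CHOP of the integrated stress response, to NF-kB and AP-1, or to the p38 and JNK kinases. The question put to these arrays was which of the 10 genes differ between conditions.

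The deposited values are centred for each probe set, so a value, taken here as log2 since the base is not stated, is a distance from that probe set's own median and holds no level. Whether a gene is expressed in these cells, and whether the defining markers of the labelled cell type are present, can therefore not be read from them. Between the ethanol and untreated arrays the 7 luminal breast markers (KRT8, KRT18, KRT19, EPCAM, ERBB2, GRB7 and GATA3) differed by between -0.32 and 0.19. The 4 leukocyte, 4 fibroblast and 3 endothelial markers measured differed by medians of -0.10, -0.02 and 0.06, and no marker reached 2-fold. No condition was repeated, so each difference is that of 1 array minus another, with no replicate error and no test. The SD over all genes of BSA minus untreated, a pair without hormone or antagonist, was 0.166 and serves as a yardstick of size.

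Sequence upstream of the gene starts is shown first, with matches to short stress elements marked. RefSeq windows (GRCh38.p14) were available for 8 of the 10 members, 15 windows in all since some genes have several starts, and the 250 bases before each start were searched on both strands. The lines give 3 members that passed 2-fold with ethanol (CDKN1A, GADD45B and PMAIP1) and 2 that did not, MDM2 and FAS. The windows of CDKN1A, MDM2 and FAS shown belong to starts that lie inside the annotated gene. Capitals mark matches to the NF-kB consensus, to AP-1 (TGANTCA), to the TATA box (TATAAA) or to the short CRE core (TGACG), on either strand.

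CDKN1A, chr6:36678464-36678713, plus strand: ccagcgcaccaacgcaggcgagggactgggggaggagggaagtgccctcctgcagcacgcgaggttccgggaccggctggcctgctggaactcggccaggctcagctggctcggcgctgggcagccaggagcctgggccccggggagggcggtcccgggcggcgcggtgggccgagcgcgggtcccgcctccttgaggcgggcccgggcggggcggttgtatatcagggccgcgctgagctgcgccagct

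GADD45B, chr19:2475877-2476126, plus strand: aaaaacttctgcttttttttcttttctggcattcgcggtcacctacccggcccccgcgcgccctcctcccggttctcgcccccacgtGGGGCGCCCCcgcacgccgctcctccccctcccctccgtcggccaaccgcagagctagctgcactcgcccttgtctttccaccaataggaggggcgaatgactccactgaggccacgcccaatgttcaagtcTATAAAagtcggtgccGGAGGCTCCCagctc

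PMAIP1, chr18:59899746-59899995, plus strand: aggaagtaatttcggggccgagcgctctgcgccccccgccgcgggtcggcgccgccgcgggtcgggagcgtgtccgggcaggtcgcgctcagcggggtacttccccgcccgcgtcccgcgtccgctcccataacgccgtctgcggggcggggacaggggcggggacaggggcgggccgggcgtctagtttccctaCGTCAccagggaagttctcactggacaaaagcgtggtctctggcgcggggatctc

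MDM2, chr12:68808774-68809023, plus strand: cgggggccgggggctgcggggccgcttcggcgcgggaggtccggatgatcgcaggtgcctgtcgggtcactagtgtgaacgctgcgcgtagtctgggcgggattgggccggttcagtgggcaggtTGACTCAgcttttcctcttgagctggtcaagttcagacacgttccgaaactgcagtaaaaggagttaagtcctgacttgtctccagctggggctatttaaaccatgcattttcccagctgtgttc

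FAS, chr10:88991181-88991430, plus strand: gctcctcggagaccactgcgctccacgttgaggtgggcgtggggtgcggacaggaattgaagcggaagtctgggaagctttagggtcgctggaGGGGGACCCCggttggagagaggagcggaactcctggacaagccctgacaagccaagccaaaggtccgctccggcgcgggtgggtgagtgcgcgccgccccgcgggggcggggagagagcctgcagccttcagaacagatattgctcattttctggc

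NF-kB matches were found in GADD45B, at 163 and at 15 bases before the start, and in 1 of the FAS windows. These are 2 of the 15 windows, against 9.96% of all windows. AP-1 matches were found in MDM2, FAS and BBC3, in 4 of the 15 windows, against 6.57% of all windows. The MDM2 windows among them overlap and hold the same AP-1 site. A TATA box was found in GADD45B alone, against 10.7% of all windows. Whether the members differ from all windows was not tested. The CDKN1A window held none of these elements. The full CRE (TGACGTCA, in 1.65% of all windows) and the ATF4 composite element (TGATGNAA, in 3.14%) matched 0 of the 15 windows, and the short CRE core TGACG, in 21.2% of all windows, matched PMAIP1 and SESN1. A match describes letters in the window and does not show binding.

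The vehicle comparison sets ethanol alone against untreated cells, and here the ethanol array stood apart for most of the group. With 1 ethanol array, the treatment cannot be told apart from other features of that culture or array. Of the 9 genes, 5 were at least 2-fold higher with ethanol than in untreated cells and 0 lower, where 0.87% of all genes were higher by that size. These were PMAIP1, GADD45A, GADD45B, CDKN1A and TNFRSF10B, and the BBC3 probe set was higher too. MDM2, TP53I3, SESN1 and FAS lay within 0.16 of the untreated array. The median over the 9 genes was 1.04, against -0.03 over all genes. The ethanol array was the highest of the 8 for 6 of the 9 genes, as it was for 19.4% of all genes. For 4 of the 9 genes the ethanol value lay at least 2-fold above the highest of the other 7 arrays, a position held by 0.637% of all genes. Quantile normalization gives every array the same distribution and so compresses the wide ethanol array. Under it 1 of the 9 genes, PMAIP1 at 1.27, stayed past 2-fold, with 0.223% of all genes in either direction. Without probe sets ending in _s_at or _x_at it was 2 of the 5 genes left, with 0.889% of all genes. CDKN1A and PMAIP1 have only _s_at probe sets and so have no value there.

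**Figure D1:**
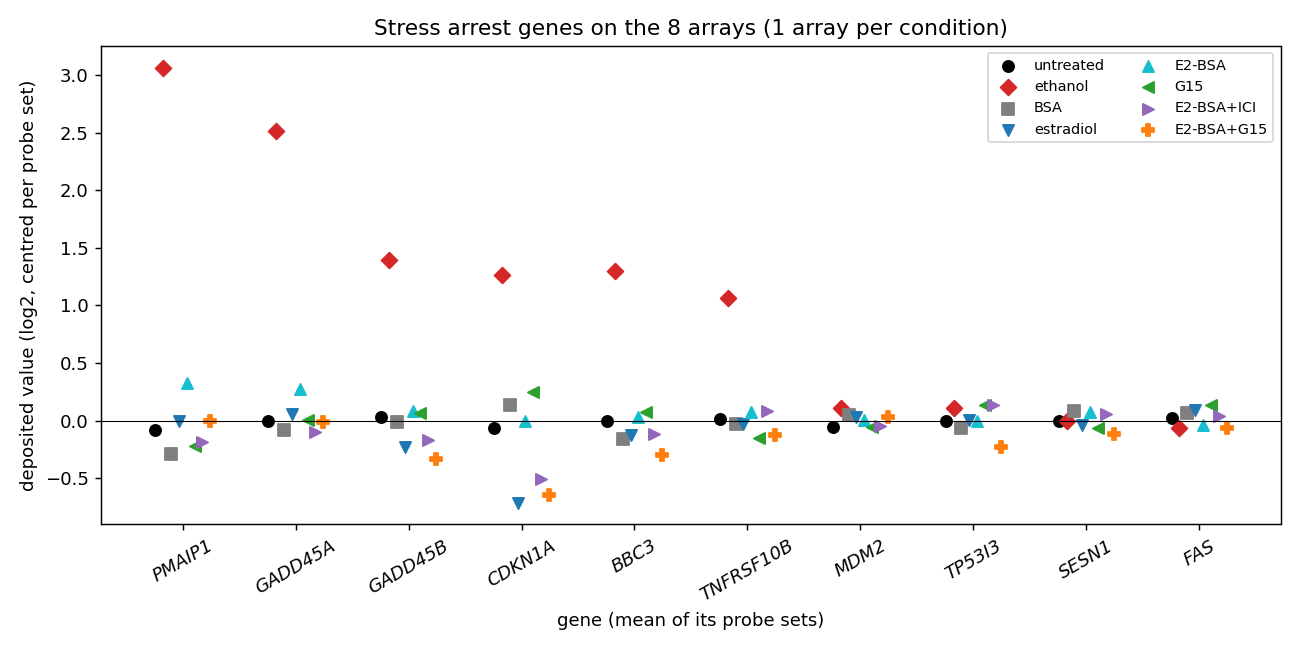
Deposited values, taken as log2, centred per probe set and averaged over the probe sets of each gene (y axis), of the 10 genes (x axis) on 8 arrays, 1 symbol per array; BBC3 is 1 probe set that also lists microRNA genes. The ethanol array reaches 3.06 for PMAIP1 and 2.52 for GADD45A and stands above all other arrays for the 6 genes on the left, while for the 4 genes on the right it stays within the spread of the rest or close to it.

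Among the arrest genes, GADD45A encodes a small stress protein that binds PCNA, the CDK1 complex and the kinase MAP3K4. Its probe set stood at 2.52 with ethanol, 0.00 untreated, -0.09 with BSA, 0.06 with estradiol, 0.28 with E2-BSA, 0.01 with G15, -0.10 with E2-BSA plus ICI and -0.01 with E2-BSA plus G15. Ethanol was 5.72-fold above untreated and lay 2.24 above the next array, E2-BSA, while the other 7 arrays spanned 0.38.

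GADD45B, its paralogue, is known as a target of NF-kB and TGF-beta signalling and was at 1.40 with ethanol, 0.03 untreated, -0.01 with BSA, -0.23 with estradiol, 0.08 with E2-BSA, 0.07 with G15, -0.17 with E2-BSA plus ICI and -0.33 with E2-BSA plus G15. The ethanol value was 2.58-fold above untreated and exceeded the next array by 1.31. All 4 probe sets were highest on the ethanol array, with differences from untreated of between 0.85 and 1.60, and 3 of them passed 2-fold. The third paralogue, GADD45G, differed by -0.04.

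CDKN1A encodes p21, the inhibitor of cyclin-dependent kinases through which damaged cells arrest in G1. Its probe set read 1.26 with ethanol, -0.06 untreated, 0.13 with BSA, -0.71 with estradiol, 0.00 with E2-BSA, 0.25 with G15, -0.51 with E2-BSA plus ICI and -0.64 with E2-BSA plus G15. The ethanol array was 2.51-fold above untreated and 1.02 above the next array, G15. Among gene values CDKN1A had the widest range of the 10 members on the other 7 arrays, 0.96. That was just under the 2-fold range that 0.238% of all genes reached there. CDKN1A rests on 1 probe set, while averaging over several can narrow the range of other members. A single PMAIP1 probe set differed by 0.97 between E2-BSA and BSA.

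Of the apoptosis genes, PMAIP1 encodes NOXA, a BH3-only protein that neutralises MCL1. It stood at 3.06 with ethanol, -0.08 untreated, -0.29 with BSA, 0.00 with estradiol, 0.33 with E2-BSA, -0.22 with G15, -0.19 with E2-BSA plus ICI and -0.002 with E2-BSA plus G15. This was the largest difference in the group, 8.82-fold over untreated, and the gap to the next array, E2-BSA, was 2.74. Its probe sets were higher by 2.99 and 3.30.

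The probe set annotated to BBC3, the gene of the BH3-only protein PUMA, gave 1.30 with ethanol, 0.00 untreated, -0.16 with BSA, -0.12 with estradiol, 0.03 with E2-BSA, 0.07 with G15, -0.12 with E2-BSA plus ICI and -0.30 with E2-BSA plus G15. The ethanol value was 2.46-fold above untreated and 1.22 above the next array.

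TNFRSF10B encodes DR5, a death receptor for TRAIL that is known to be induced by CHOP. Its mean was 1.06 with ethanol, 0.02 untreated, -0.03 with BSA, -0.02 with estradiol, 0.08 with E2-BSA, -0.15 with G15, 0.09 with E2-BSA plus ICI and -0.12 with E2-BSA plus G15. The mean difference of 1.04 from untreated hides a spread over its 4 probe sets from 0.03 to 2.38. The probe set whose name ends in plain _at went from -0.16 to 2.22, while the one ending in _s_at went from 0.13 to 0.16. The remaining pair, ending in _x_at, which marks probes that can match other transcripts, were at 0.80 and 1.07 with ethanol.

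FAS encodes the death receptor of FAS ligand. The ethanol array was the lowest of the 8, at -0.06, and untreated stood at 0.02, BSA at 0.07, estradiol at 0.09, E2-BSA at -0.04, G15 at 0.14, E2-BSA plus ICI at 0.04 and E2-BSA plus G15 at -0.06. Its 5 probe sets differed from untreated by between -0.20 and 0.07, and none was highest with ethanol.

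**Figure D2:**
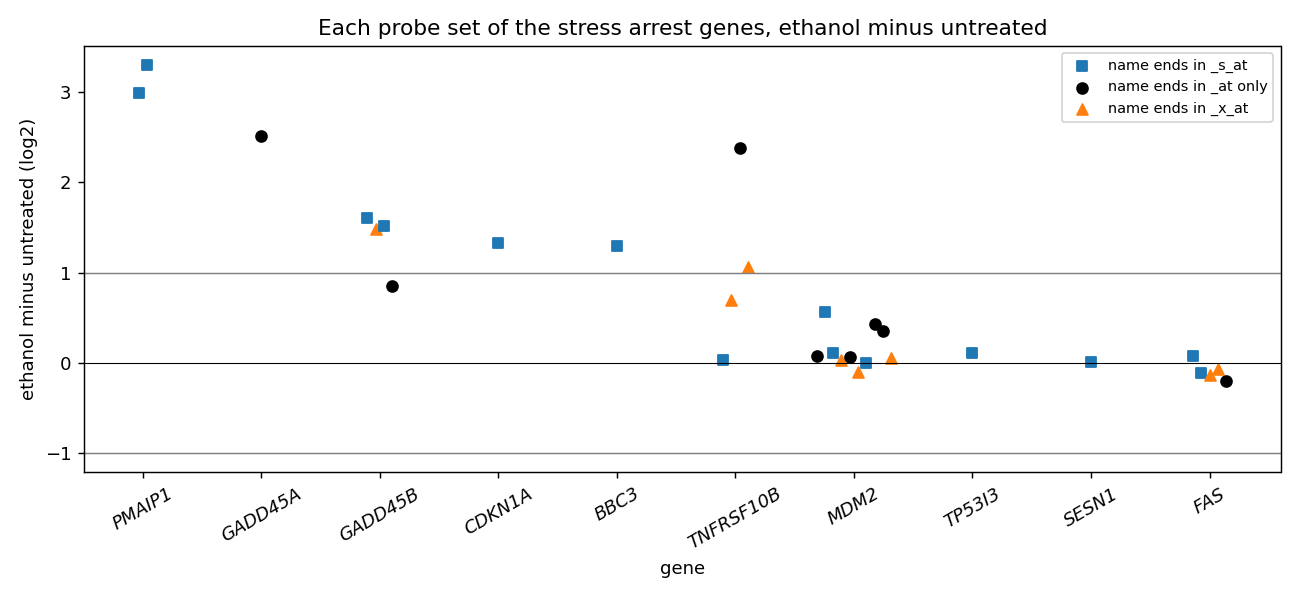
Ethanol minus untreated difference (log2, y axis) of each of the 30 probe sets, by gene (x axis), with symbols for the ending of the probe set's name, where _s_at and _x_at mark probes that can match several transcripts. The 4 TNFRSF10B probe sets run from 0.03 to 2.38 and the 10 of MDM2 from -0.10 to 0.56, while all 4 of GADD45B lie above 0.85.

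MDM2, a ubiquitin ligase of the damage response, had a mean of 0.11 with ethanol, -0.05 untreated, 0.05 with BSA, 0.03 with estradiol, 0.01 with E2-BSA, -0.05 with G15, -0.05 with E2-BSA plus ICI and 0.03 with E2-BSA plus G15. The ethanol array was highest by 0.06 only. Of its 10 probe sets 0 reached 1.5-fold, and the one that differed most went from -0.16 untreated to 0.40 with ethanol, a difference of 0.56. That probe set also varied without ethanol, from -0.41 with E2-BSA plus ICI to 0.23 with E2-BSA plus G15.

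TP53I3, a quinone oxidoreductase known as PIG3, was at 0.11 with ethanol, 0.00 untreated, -0.06 with BSA, 0.01 with estradiol, 0.00 with E2-BSA, 0.14 with G15, 0.13 with E2-BSA plus ICI and -0.23 with E2-BSA plus G15. SESN1, a sestrin that restrains mTORC1, was at 0.00 with ethanol, -0.01 untreated, 0.09 with BSA, -0.04 with estradiol, 0.07 with E2-BSA, -0.06 with G15, 0.06 with E2-BSA plus ICI and -0.12 with E2-BSA plus G15. For both genes the ethanol value lay inside the range of the other arrays. Each rests on 1 probe set.

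Genes with the most similar profiles over the 8 arrays were sought among 363 non-member genes with a range of at least 2-fold, by the root mean square difference between profiles. The nearest to CDKN1A were PFKFB3 (0.128), JUNB (0.219) and BAMBI (0.227). The nearest to GADD45A were NFKBIZ (0.105), DUSP10 (0.106) and CHAC1 (0.139), and to GADD45B they were BAMBI (0.081), EFNA1 (0.094) and COXFA4L3 (0.101). PMAIP1 lay nearest to CXCL10 (0.128), PLK2 (0.205) and PPP1R15A (0.223), the BBC3 probe set to THEMIS2 (0.077), COXFA4L3 (0.084) and TNFAIP2 (0.088), and TNFRSF10B to INTS6L (0.049), AMIGO2 (0.051) and TIGD1 (0.056). Since 1 array carries most of each range, likeness here is mostly likeness in the size of the ethanol difference.

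On ethanol minus untreated the wider pathway was read from lists. Of 24 other damage response targets measured, 3 were at least 2-fold higher, against 0.87% of all genes, and 0 lower, with a list median of 0.10. They were PLK2, a polo-like kinase, at 2.70, SESN2, the stress-inducible sestrin, at 1.89 and the nuclease gene AEN at 1.08. At 1.5-fold 5 of the 24 were higher, where 2.98% of all genes were, the further pair being the death receptor gene TNFRSF10A at 0.88 and PPM1D, a phosphatase that ends the response, at 0.75. The others ran from -0.24 for TNFRSF10C to 0.42 for PLK3, with BAX at 0.10 and CCNG1 at -0.01. Among 10 damage response regulators, which include the kinases ATM, ATR, CHEK1 and CHEK2, 0 reached 2-fold, and PPM1D, which is on both lists, differed most.

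Among the lists closest to the members by function few genes were past 2-fold. In the GADD45 and p38/JNK cascade list 0 of 9 genes reached 2-fold, with a median of -0.10, and MAP3K5 differed most, by -0.44. Of the 5 other CDK inhibitors 0 reached 2-fold, and CDKN2B differed by 0.57. Of 13 BCL2 family genes 0 reached 2-fold. At 1.5-fold 3 were higher, against 2.98% of all genes, and 1 was lower, against 0.723%. The higher ones were BCL2A1 at 0.94, the BH3-only gene BCL2L11 at 0.92 and BID at 0.75. The lower one was BMF, another BH3-only gene, at -0.61. Among 12 death receptor genes the median was 0.10 and TNFRSF10A, the DR4 gene, differed most, by 0.88. Of the 7 sestrin and mTORC1 inhibitor genes SESN2 alone passed 2-fold, and the list median was 0.29, against -0.03 over all genes.

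Of 12 ATF4 and CHOP genes 6 were at least 2-fold higher, against 0.87% of all genes, with a median of 0.97. They were PPP1R15A at 3.20, CHAC1 at 2.59, ATF3 at 1.97, SESN2 at 1.89, DDIT3, which encodes CHOP, at 1.57 and CEBPB at 1.18. The rest ran from -0.05 for TRIB3 to 0.76 for ATF4, with XBP1 at 0.05. Of 10 NF-kB feedback genes 7 were at least 2-fold higher, against the same 0.87%, with a median of 1.24. TNFAIP3 at 5.17 and NFKBIE at 2.09 led, then RELB at 1.70, IER3 at 1.37, NFKBIA at 1.31, TNFAIP2 at 1.17 and NFKB1 at 1.11. The rest ran from 0.54 for TNIP1 to 0.95 for NFKB2. These lists were high on the same single array as the 5 members, and their part in the members' difference was not tested. SESN2 belongs to 3 of the lists.

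Of 18 cell cycle genes that the p21 and DREAM pathway represses, 5 were lower by 1.5-fold or more on that array, against 0.723% of all genes, and 0 by 2-fold. The list median was -0.46, and 17 of the 18 were below 0, as were 56.0% of all genes. KIF23 differed by -0.96, KIF20A by -0.88, TOP2A by -0.77, PLK1 by -0.71 and CCNA2 by -0.70, while MCM5 and E2F1 were at -0.06 and CCNE2 at 0.05. A link between these values and the CDKN1A difference was not tested.

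**Figure D3:**
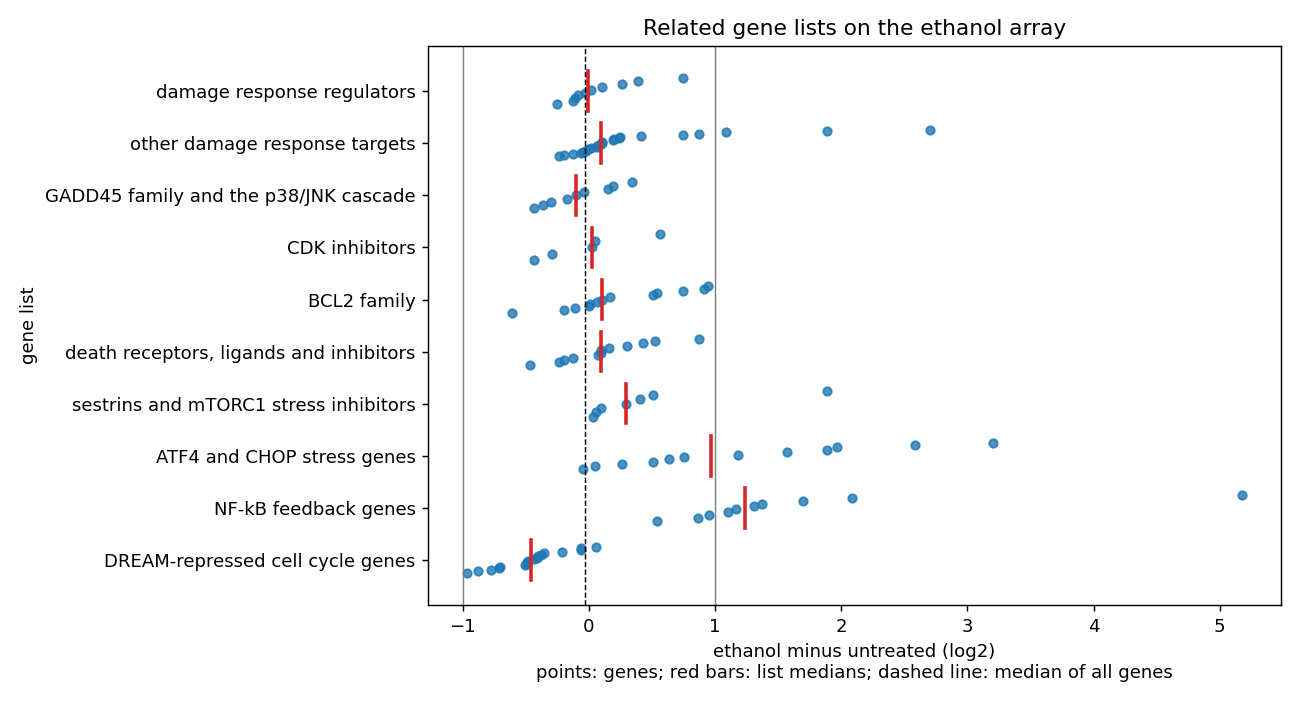
Ethanol minus untreated difference (log2, x axis) of each measured gene in 10 related lists (rows), with the list median as a red bar, the median of all genes as a dashed line and solid lines at 2-fold. The NF-kB (median 1.24) and ATF4 (0.97) lists lie to the right, the other damage response targets are centred near 0.10 with 3 genes past 2-fold, and the cell cycle list lies to the left at -0.46.

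The comparison of estradiol with ethanol shares the ethanol array with the one above. The labels call ethanol the vehicle of estradiol but give no ethanol content for the estradiol array, so the pair is not shown to be matched for vehicle. Of the 9 genes 5 were at least 2-fold lower with estradiol than with ethanol, where 0.865% of all genes were lower by that size. The differences were -3.06 for PMAIP1, -2.46 for GADD45A, -1.97 for CDKN1A, -1.62 for GADD45B and -1.09 for TNFRSF10B, and -1.42 for the BBC3 probe set. Against untreated cells the same estradiol array gave 0.08, 0.06, -0.65, -0.26, -0.04 and -0.12 in that order. Of these genes CDKN1A alone was lower than untreated by 1.5-fold, a size at which 0.091% of all genes were lower. Against BSA it was at -0.84, where 0.288% were lower by 1.5-fold, and no other of the 9 genes passed it. DDIT4, a gene of the sestrin and ATF4 lists, stood at -1.02 on estradiol minus ethanol and at -0.52 on estradiol minus untreated.

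Without the ethanol array, CDKN1A, read from 1 probe set, had the gene value that differed most between conditions. Its lowest 3 values were those of estradiol (-0.71), E2-BSA plus G15 (-0.64) and E2-BSA plus ICI (-0.51), and the next, untreated, stood at -0.06. GADD45B had the same 3 arrays lowest, at -0.23, -0.33 and -0.17, with BSA next at -0.01, but 1 of its 4 probe sets, the one ending in plain _at, was lowest with E2-BSA, at -0.30. In that order of arrays, CDKN2B (-0.23, -0.40 and -0.15) and DDIT4 (-0.42, -0.33 and -0.20) are examples from the related lists with the same 3 arrays lowest. For 1.35% of all genes these 3 arrays were lower than the other 5. ID1, an inhibitor of helix-loop-helix factors, stood at -2.02, -1.70 and -1.93 with estradiol, E2-BSA plus G15 and E2-BSA plus ICI, and between -0.34 and 0.17 on the other 5 arrays. ID1 is on none of the lists and was picked after its values were seen, so it gives no separate support for this grouping.

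**Figure D4:**
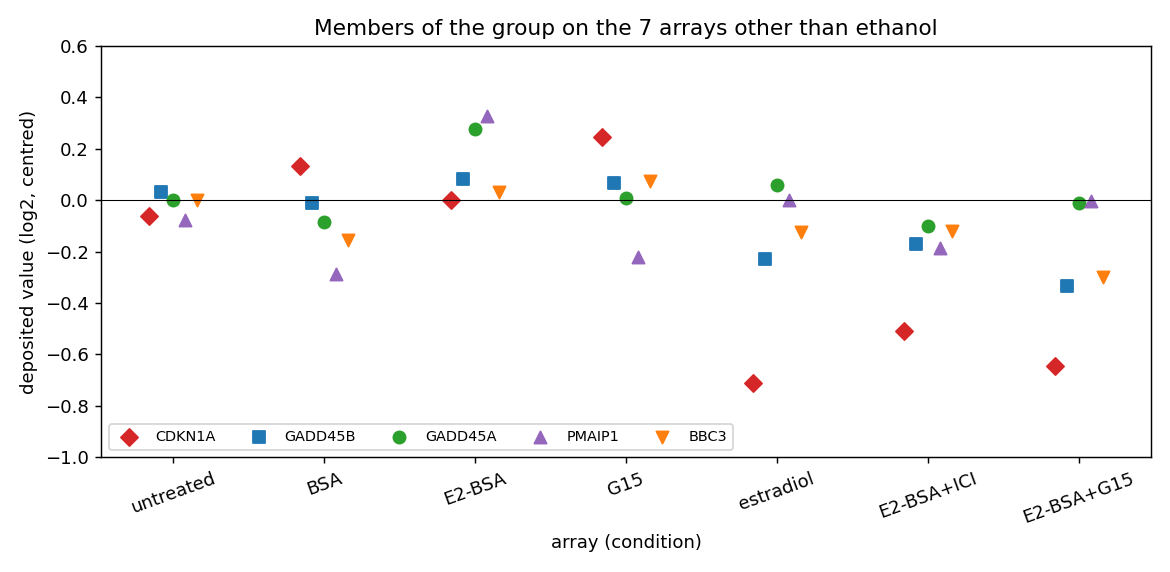
Deposited values, taken as log2 (y axis) of CDKN1A, GADD45B, GADD45A, PMAIP1 and the BBC3 probe set on the 7 arrays other than ethanol (x axis). CDKN1A lies between -0.71 and -0.51 on the 3 arrays at the right and between -0.06 and 0.25 on the 4 at the left.

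BSA alone differed little from untreated for these genes: 0 of 9 reached 1.5-fold, where 0.556% of all genes did in either direction, and the values ran from -0.21 for PMAIP1 to 0.19 for CDKN1A. E2-BSA was set against this carrier. PMAIP1 was higher by 0.61, the only 1 of 9 past 1.5-fold, where 0.339% of all genes were, and its probe sets were at -0.49 and -0.09 on BSA and at 0.48 and 0.17 on E2-BSA. GADD45A was higher by 0.36 and CDKN1A differed by -0.13. Against untreated cells E2-BSA gave 0.41 for PMAIP1 and 0.28 for GADD45A, and 0 of 9 genes reached 1.5-fold, where 0.349% of all genes did.

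Free and coupled estradiol, which differ by the albumin carrier, were each given at a stated 1e-06 M. On estradiol minus E2-BSA, CDKN1A was at -0.71, past 1.5-fold where 0.111% of all genes were lower by that size. It was the only 1 of 9 genes past it, and the others ran from -0.33 for PMAIP1 to 0.13 for FAS. With 1 array each no interval can be given for this difference, and whether both doses carry the same amount of hormone was not resolved here.

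On G15 minus untreated 0 of the 9 genes passed 1.5-fold, where 0.531% of all genes did, and the largest differences were 0.31 for CDKN1A and -0.17 for TNFRSF10B. Added to E2-BSA, G15 was accompanied by lower CDKN1A, at -0.64 against E2-BSA, where 0.359% of all genes were lower by 1.5-fold. GADD45B differed by -0.41, PMAIP1 by -0.33 and the BBC3 probe set by -0.33. The 9 genes ran up to 0.03 for MDM2, with a median of -0.23, against -0.01 over all genes. Against G15 alone the combination gave -0.89 for CDKN1A, again the only 1 of 9 past 1.5-fold where 0.359% of all genes were lower, -0.40 for GADD45B and 0.22 for PMAIP1.

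With ICI added to E2-BSA, 0 of the 9 genes differed from E2-BSA by 1.5-fold, where 1.6% of all genes did in either direction. PMAIP1 (-0.51) and CDKN1A (-0.51) differed most, followed by GADD45A at -0.38 and GADD45B at -0.25, and FAS, TP53I3 and TNFRSF10B were above 0, at 0.08, 0.13 and 0.01. PMAIP1 and GADD45A had their highest value among the 7 arrays other than ethanol on the E2-BSA array. Against their own medians, both genes stood at -0.19 and -0.10 with ICI added.

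**Figure D5:**
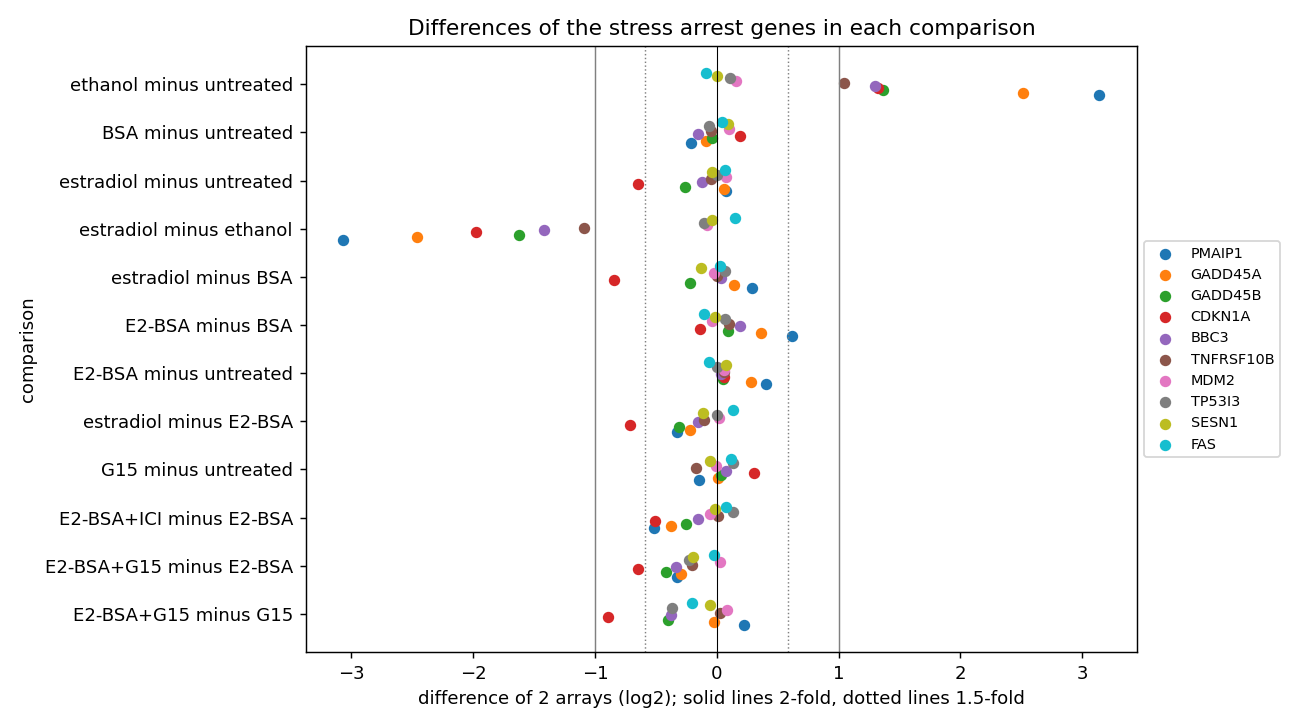
Difference of 2 arrays (log2, x axis) for the 10 genes (points, 1 colour per gene) in each of 12 comparisons (rows), with lines at 1.5-fold and 2-fold. Points past 2-fold occur only in the rows that hold the ethanol array, and CDKN1A is the leftmost point in the rows of estradiol or of E2-BSA plus G15 without ethanol.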

How the data were processed

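Transcripts of SKBR3 cells were measured on 8 Affymetrix arrays, 1 per condition, each placed by its title. The values the authors deposited were taken here as log2; the base, the probe summary and the normalization are not stated in any source used. They lie between -2.27 and 7.85. In every probe set at most 4 arrays lie above 0 and at most 4 below, as after centring on a median per probe set. With base e the folds would be larger. Probe sets were named through the platform annotation: 41091 carried 1 gene, 1801 several and 11721 none, and 62 control probe sets were left out. Symbols of 41037 were updated by gene identifier. A gene value is the mean of its probe sets, over 19775 genes, with no filter on low values since centring removes the level. Differences between arrays were counted at 2-fold (1.00) and 1.5-fold in Python 3.11.15, with the share of all genes as background; with 1 array per condition no test was made, and the number of arrays limits the precision. Counting was tested on simulated data. All members are named. List genes are named at 2-fold on ethanol minus untreated, others as examples chosen after their values were seen. Some items are not reported here. The members and lists were chosen with earlier results of these data known. Alternatives were other summaries of probe sets, array scalings, reference arrays and fold sizes.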

Additional observations from a re-analysis of the deposited data

Results flagged for a closer look

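CDKN1A differed in opposite directions with G15 in the absence and presence of E2-BSA. G15 minus untreated was 0.31, and E2-BSA plus G15 minus E2-BSA was -0.64. Both exceed in size the SD over genes of BSA minus untreated, 0.166, which is taken over gene means, while CDKN1A rests on 1 probe set. The difference between the 2 comparisons was not tested, since each condition has 1 array. CDKN1A was the only one of the 10 members to differ in this way in either of 2 pairs of comparisons screened. The other pair was free against coupled hormone.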

How the results depend on the processing

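No paired analysis was possible because each condition has 1 array. The 5 genes at 2-fold on ethanol minus untreated became 1 of 9 under quantile normalization, which maps the wider ethanol distribution onto the mean of all arrays, and 2 of 5 without _s_at and _x_at probe sets, where fewer genes have a value. On estradiol minus ethanol the count of 5 became 2 of 9 under quantile normalization, with 0.157% of all genes in either direction. It became 2 of 5 without those probe sets, with 0.807%, a setting in which CDKN1A and PMAIP1 have no value. The 4 genes whose ethanol value lay 2-fold above all other arrays became 0 of 9 under quantile normalization and 2 of 5 without those probe sets. On estradiol minus BSA, quantile normalization gave 1 of 9 in place of 0, with 0.081% of all genes in either direction. At 1.5-fold the count of 0 became 1 for estradiol minus untreated, estradiol minus BSA, E2-BSA minus BSA, estradiol minus E2-BSA, E2-BSA plus G15 minus E2-BSA and E2-BSA plus G15 minus G15. The count for ethanol was 4 with the median of probe sets and 5 with BSA, or with the median of the other 7 arrays, as reference, both added after seeing the data. For single genes, alternatives were computed to ethanol minus untreated and estradiol minus untreated only. Of these 110 values 90 moved by less than 0.166 and 20 by more, and no value of 1.5-fold or more changed sign. Part of the 90 could not move. Median centring changes nothing where every array median is 0, and the median or the most variable probe set changes nothing for a gene with 1 probe set. Under quantile normalization ethanol minus untreated was 1.27 for PMAIP1, 0.98 for GADD45A, 0.65 for CDKN1A, 0.56 for GADD45B and 0.45 for TNFRSF10B.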
